A study of Mus musculus with 4 samples.

Results

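The genes described are 9 genes of retinoid uptake, synthesis, binding, breakdown and response, namely Stra6, Aldh1a1, Aldh1a2, Aldh1a3, Dhrs3, Crabp1, Crabp2, Rarb and Cyp26b1, out of 27597 genes named by the probes of the array. They were chosen around Aldh1a1 because its ratio ran in opposite directions in the 2 knockout comparisons, and the other 8 were chosen by their place in the pathway with earlier results of these arrays known. They are read by 12 probes, and every probe is reported in both comparisons. Gene expression was measured in mouse embryonic fibroblasts (MEFs), connective-tissue cells grown out of mid-gestation embryos, in logarithmic growth. The strain is given as C57BL/6J for all cultures, though the source name of the G2KO pair reads C57BL/7J. A CycG1-/- culture (G1KO), from mice in which a PGK-neo cassette takes the place of all coding exons of Ccng1, was set against a CycG1+/+ culture (WT). A culture labelled CycG2-/- (G2KO) was set against a CycG2+/+ WT culture of its own, so the comparisons share no control. Knockout and WT RNA were hybridised together on 2-colour arrays, once with the knockout RNA in the dye Cy5 and once in Cy3. Each genotype was thus 1 culture, with no biological replicate, and ± gives the SD over both arrays of a comparison, a technical spread. For the same reason no test across cultures was possible, and every difference below is a description of these 4 cultures.

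Retinol enters cells through receptors such as STRA6 and is oxidised to retinaldehyde and then, by the retinaldehyde dehydrogenases ALDH1A1, ALDH1A2 and ALDH1A3, to retinoic acid, while DHRS3 returns retinaldehyde to retinol. Retinoic acid is carried by the binding proteins CRABP1 and CRABP2, acts on nuclear retinoic acid receptors, and is broken down by the CYP26 enzymes. In embryonic mesenchyme the pathway patterns the limb, the hindbrain and the heart, and several of its own genes, among them Rarb, Dhrs3 and the Cyp26 genes, are known to respond to retinoic acid.

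Upstream sequence is shown for the gene with the classic response element and for the 3 genes called in opposite directions in the 2 comparisons. The RefSeq promoter table of build GRCm38.p6 held entries for 7 of the 9 genes, with 13 start sites in all. Each sequence gives the 250 bases before an annotated start, from 5′ to 3′. For Aldh1a1 the second of its 2 annotated starts is shown. Which start the transcripts in these cultures used was not measured. Capitals mark the core motifs of a retinoic acid response element of the DR5 type, which is a pair of hexamers like AGGTCA in the same orientation with 5 bases between them, searched on both strands.
Rarb (chr14:16575477-16575726, minus strand): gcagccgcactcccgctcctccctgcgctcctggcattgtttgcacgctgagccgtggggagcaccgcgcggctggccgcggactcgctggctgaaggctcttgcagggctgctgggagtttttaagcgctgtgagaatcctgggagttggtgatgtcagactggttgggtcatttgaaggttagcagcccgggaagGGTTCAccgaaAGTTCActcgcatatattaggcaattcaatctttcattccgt
Aldh1a1 (chr19:20601718-20601967, plus strand): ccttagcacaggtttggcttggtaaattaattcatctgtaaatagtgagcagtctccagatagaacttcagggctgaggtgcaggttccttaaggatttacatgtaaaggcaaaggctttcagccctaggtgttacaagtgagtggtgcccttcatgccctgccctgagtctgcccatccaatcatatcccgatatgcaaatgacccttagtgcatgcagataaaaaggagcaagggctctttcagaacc
Crabp1 (chr9:54764498-54764747, plus strand): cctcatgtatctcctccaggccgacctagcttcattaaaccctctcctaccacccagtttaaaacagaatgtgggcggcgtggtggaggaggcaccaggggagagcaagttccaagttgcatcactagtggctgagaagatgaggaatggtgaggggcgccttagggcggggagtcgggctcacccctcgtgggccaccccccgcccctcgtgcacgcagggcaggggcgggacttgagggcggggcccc
Cyp26b1 (chr6:84593811-84594060, minus strand): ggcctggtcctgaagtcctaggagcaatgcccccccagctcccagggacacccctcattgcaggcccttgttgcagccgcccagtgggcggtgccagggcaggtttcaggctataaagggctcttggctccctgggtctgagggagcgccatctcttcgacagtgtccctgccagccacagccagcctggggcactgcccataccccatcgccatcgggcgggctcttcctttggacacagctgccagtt

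The DR5 element lay from 53 to 37 bases before the Rarb start. It was found in the window of Rarb and in no other of the 13 windows, and 0.262% of all 32851 windows of the same length held such an element. The strict hexamer AGGTCA, searched on both strands, was in 14.0% of all windows and in none of the 13. A match is a description of letters and says nothing of binding in these cells.

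Of the 9 genes, 8 were above background in each comparison, and a probe counted as called where both arrays gave a log2 ratio of knockout over WT of 1 or more, or both of -1 or less. In the G1KO comparison 5 of the 8 genes were called. Aldh1a2 and Crabp1 were higher in G1KO, and Aldh1a1, Cyp26b1 and Stra6 were lower. Over all probes 5.79% were called in that comparison, and since the genes were chosen on these ratios nothing is read from their share. For the RNA labelled G2KO 4 of the 8 genes were called, Aldh1a1 and Cyp26b1 as higher and Crabp1 and Dhrs3 as lower, where 6.37% of all probes were called. The median log2 ratio of the 8 genes was -0.60 for G1KO and -0.46 for G2KO, beside -0.00 and -0.01 over all probes tested.

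**Figure D1:**
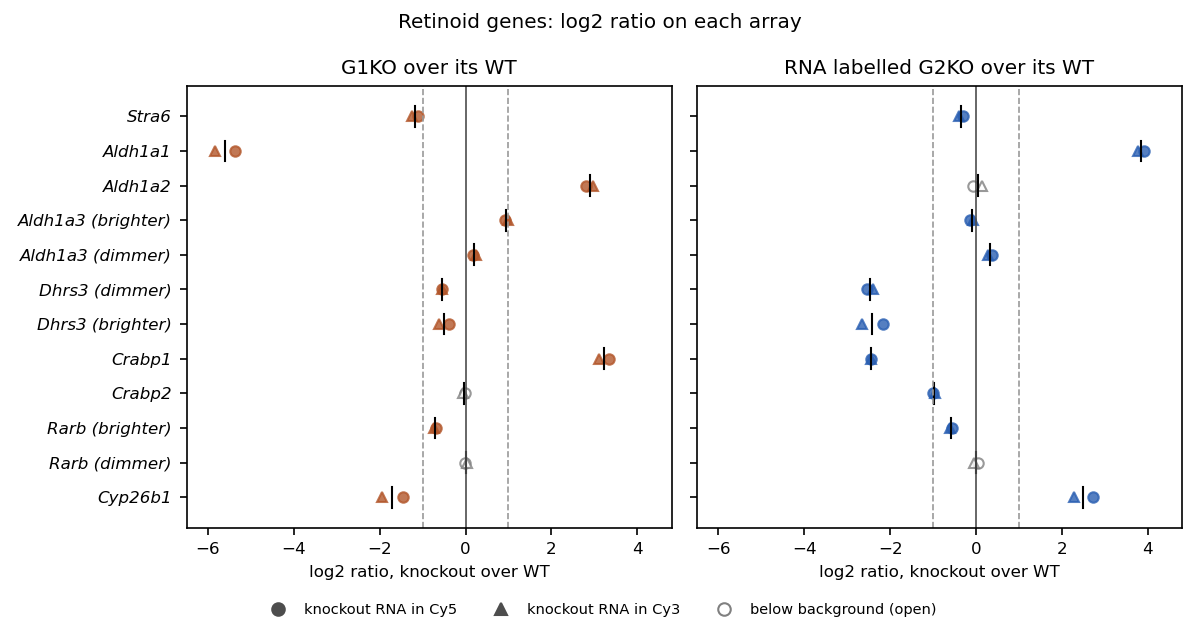
Log2 ratio of knockout over WT (x axis) of every probe of the 9 retinoid genes (y axis) on each array, with G1KO on the left and the RNA labelled G2KO on the right. Circles are arrays with knockout RNA in Cy5, triangles with it in Cy3, vertical bars their mean, open symbols probes below background in both genotypes, and dashed lines the 2-fold limits. Aldh1a1 lies at -5.60 and 3.84, Crabp1 at 3.22 and -2.45, and Cyp26b1 at -1.70 and 2.50.

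All levels and differences below are on the log2 scale. A level is the signal of 1 channel after normalisation, averaged over the Cy5 and Cy3 channels of a culture, and levels are compared between cultures for the same probe and never between probes. Cultures of different pairs never shared an array, so a difference between them rests on the scaling of channels across arrays. In bulk RNA, fewer cells of a type and less RNA per cell cannot be told apart.

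Uptake was represented by Stra6, the cell surface receptor for retinol bound to its plasma carrier, read by a probe spanning chromosome 9, 57950709 to 57951320 (build mm8, plus strand). Its level was 8.86 in G1KO and 10.03 in the WT of that pair. The RNA labelled G2KO had 8.53 and the WT of that pair 8.88. The G1KO ratio was -1.11 and -1.24 on the individual arrays, with a mean of -1.17 ± 0.09, and the G2KO ratio was -0.29 and -0.40, with a mean of -0.35 ± 0.08. Stra6 was therefore highest in the WT of the G1KO pair, and G1KO and the WT of the G2KO pair differed by less than the difference between their dyes.

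Aldh1a1, a cytosolic retinaldehyde dehydrogenase, gave the largest ratios of the 9 genes. Its probe lies at chromosome 19, 20710371 to 20710430 (mm8, plus strand). Before normalisation the brightness of the spot in Cy5 was 110100 in the WT of the G1KO pair, 4922 in the RNA labelled G2KO, 2898 in G1KO and 286 in the WT of the G2KO pair. The normalised levels of the 4 cultures took the same order, with 16.04, 11.70, 10.44 and 7.86, and each step was larger than the difference between dyes. The ratio in G1KO was -5.37 and -5.83 on the individual arrays, a mean of -5.60 ± 0.32 or 48.5-fold lower. The RNA labelled G2KO gave 3.91 and 3.77, a mean of 3.84 ± 0.10 or 14.4-fold higher. The knockout cultures lay between the WT cultures. They differed from each other by 1.26 ± 0.21, with G1KO the lower, whereas the WT cultures differed by 8.18 ± 0.01, a 290-fold difference that was larger than either knockout ratio.

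Aldh1a7, the gene nearly identical to Aldh1a1, had a level of 9.04 in G1KO and 8.77 in its WT, and of 10.57 in the RNA labelled G2KO and 9.59 in its WT. Its ratios were 0.27 ± 0.10 and 0.98 ± 0.08, and neither was called. Whether the Aldh1a1 and Aldh1a7 probes also bind the other transcript was not tested.

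Aldh1a2, the main retinoic acid synthesising enzyme of embryonic mesoderm, ran against Aldh1a1 in the G1KO comparison. Its probe lies at chromosome 9, 71094684 to 71094743 (mm8, plus strand). The level was 9.74 in G1KO and 6.85 in its WT, and the ratio was 2.81 and 2.96 on the individual arrays, a mean of 2.89 ± 0.11 or 7.41-fold higher. In both cultures of the G2KO pair the probe was below background on each array, with levels of 6.20 and 6.16 that were not told apart. G1KO was thus the single culture with a level of this enzyme more than 2-fold above the others.

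Aldh1a3, the third retinaldehyde dehydrogenase, was dim and its 2 probes did not give the same picture. The brighter probe (chromosome 7, 66269849 to 66269908, mm8, minus strand) had levels of 8.59 in the WT of the G2KO pair, 8.49 in the RNA labelled G2KO, 7.26 in G1KO and 6.31 in the WT of the G1KO pair. Its ratio was 0.95 ± 0.04 in G1KO, where the WT was above background on 1 of 2 arrays, and -0.10 ± 0.04 in G2KO. The dimmer probe (66287971 to 66288030) gave 0.20 ± 0.04 in G1KO, a difference of at least 1.15-fold because the WT was below background, and 0.32 ± 0.07 in G2KO. No Aldh1a3 ratio was called, and both probes were higher in the G2KO pair than in the G1KO pair.

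Dhrs3, which reduces retinaldehyde back to retinol, was read by 2 neighbouring probes on chromosome 4 (144194001 to 144194060 and, the brighter, 144194134 to 144194193, mm8, plus strand) and gave like ratios. The brighter probe had levels of 10.25 and 10.20 in the WT cultures, which were not told apart, of 9.70 in G1KO and of 7.84 in the RNA labelled G2KO. Its G2KO ratio was -2.16 and -2.67 on the individual arrays, a mean of -2.41 ± 0.36 or 5.33-fold lower, and the dimmer probe gave -2.47 ± 0.09. In G1KO the probes gave -0.50 ± 0.16 and -0.56 ± 0.00, and neither was called. Both probes were below WT on every array of both comparisons, and the call was in the RNA labelled G2KO alone.

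Crabp1, a cytosolic binding protein for retinoic acid, also ran in opposite directions, each against Aldh1a1. Its probe lies at chromosome 9, 54566522 to 54566581 (mm8, plus strand). The levels were 14.62 in the WT of the G2KO pair, 12.17 in the RNA labelled G2KO, 11.63 in G1KO and 8.40 in the WT of the G1KO pair, each step larger than the difference between dyes. In G1KO the ratio was 3.35 and 3.10 on the individual arrays, a mean of 3.22 ± 0.18 or 9.33-fold higher. The RNA labelled G2KO gave -2.45 and -2.46, a mean of -2.45 ± 0.00. As for Aldh1a1, the knockout cultures were closer to each other than the WT cultures were. Their difference was -0.54 ± 0.17 (G1KO minus the RNA labelled G2KO). The WT cultures stood apart, with a difference of -6.22 ± 0.34 (WT of the G1KO pair minus the other WT), or 74.5-fold.

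Crabp2, which delivers retinoic acid to its receptors in the nucleus, was above background only in the WT of the G2KO pair, at a level of 7.09, by a probe at chromosome 3, 88034687 to 88034746 (mm8, plus strand). In the RNA labelled G2KO it was at least 1.97-fold lower, with ratios of -1.0 and -0.96 on the individual arrays, so it lay at the 2-fold limit and was not called. Both cultures of the G1KO pair were below background.

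Rarb, which encodes retinoic acid receptor beta and carries the DR5 element shown above, was read by a probe printed in 10 spots per array (chromosome 14, 15224264 to 15224323, mm8, minus strand). The median ratio over the unflagged spots was -0.67 and -0.72 on the arrays of the G1KO pair, with single spots from -0.77 to -0.63. On the arrays of the G2KO pair it was -0.60 and -0.60, with single spots from -0.79 to -0.42. The mean ratios were -0.70 ± 0.03 and -0.58 ± 0.03, and neither was called. The levels fell into 2 pairs, with 9.38 in the WT and 8.68 in G1KO against 6.98 in the WT and 6.40 in the RNA labelled G2KO, which was above background on 1 of 2 arrays. The WT cultures differed by 2.40 ± 0.03 and the knockout cultures by 2.28 ± 0.04, both times with the G1KO pair higher. A second probe, annotated to 15341785 to 15368493, was below background in every channel.

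Cyp26b1, an enzyme that inactivates retinoic acid, ran in the same directions as Aldh1a1 but with another order of cultures. Its probe lies at chromosome 6, 84537616 to 84537675 (mm8, minus strand). The levels were 13.61 in the RNA labelled G2KO, 11.11 in its WT, 8.97 in the WT of the G1KO pair and 7.27 in G1KO, each step larger than the difference between dyes. In G1KO the ratio was -1.46 and -1.95 on the individual arrays, a mean of -1.70 ± 0.35 or 3.26-fold lower. In the RNA labelled G2KO it was 2.72 and 2.28, a mean of 2.50 ± 0.31 or 5.65-fold higher. Here the knockout cultures were the outermost, and G1KO was 81.3-fold below the RNA labelled G2KO (-6.35 ± 0.01). The WT of the G1KO pair was 4.41-fold below the other WT (-2.14 ± 0.03).

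Values next to the 2-fold limit were those of Stra6 in G1KO, just inside at -1.17, and of Crabp2 in the RNA labelled G2KO and Aldh1a3 in G1KO, just outside at -0.98 and 0.95.

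**Figure D2:**
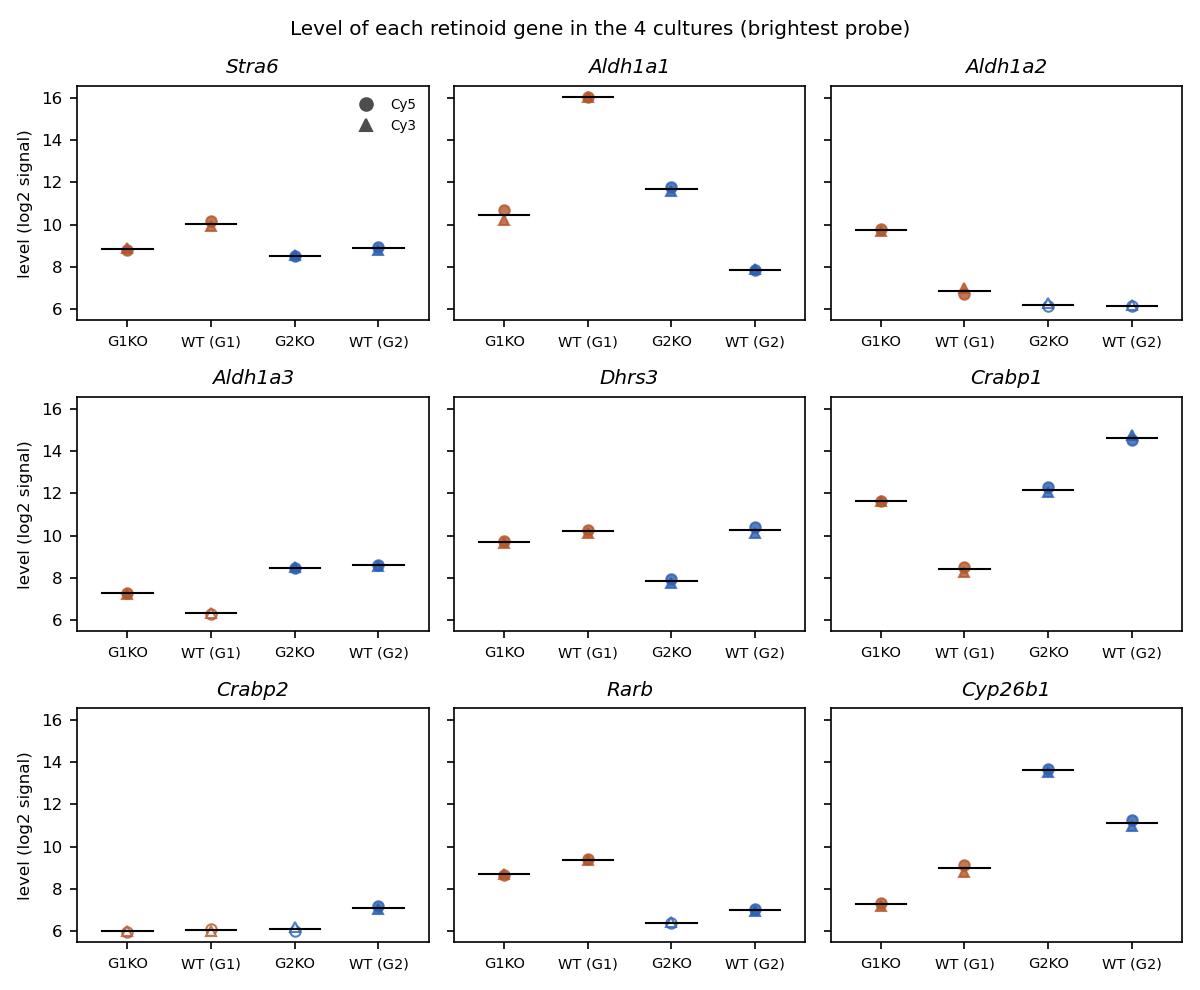
Level (y axis, log2 of the normalised signal) of the brightest probe of each of the 9 genes in the 4 cultures (x axis: G1KO, its WT, the RNA labelled G2KO, its WT). Circles are Cy5, triangles Cy3, horizontal bars their mean, and open symbols cultures not above background in both channels. Aldh1a1 runs from 7.86 to 16.04 with both extremes in WT cultures, while the extremes of Cyp26b1, 7.27 and 13.61, are the knockout cultures.

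Since each pair had a WT of its own, the WT cultures were also set against each other. Of the 9 genes, all above background in 1 of the WT cultures or both, 7 differed by at least 2-fold in both dyes, where 11.0% of all probes did. Aldh1a1, Rarb and Stra6 were higher in the WT of the G1KO pair, and Crabp1, Aldh1a3, Cyp26b1 and Crabp2 were higher in the WT of the G2KO pair. The Stra6 difference was 1.15 ± 0.05, that of Aldh1a3 was -2.28 ± 0.09 by the brighter probe and -0.57 or -0.58 in the single dyes by the dimmer, and that of Crabp2 was -1.06 ± 0.03 with the lower culture below background. Aldh1a2, with 0.69 ± 0.14, and Dhrs3, with -0.05 ± 0.11, did not reach 2-fold, but with the scanner's processed signals the Aldh1a2 difference was 2.97 and that of the dimmer Aldh1a3 probe was -2.56, both past 2-fold. Between the knockout cultures 6 of 8 genes above background differed by at least 2-fold, where 8.66% of all probes did. Aldh1a2 (3.54 ± 0.17), Rarb and Dhrs3 (1.86 ± 0.08) were higher in G1KO, and Aldh1a1, Aldh1a3 (-1.22 ± 0.09) and Cyp26b1 were lower. The Aldh1a3 value is that of the brighter probe, and the dimmer gave -0.69 ± 0.12, which did not reach 2-fold. These differences use the same RNA as the ratios that chose the genes and are given as descriptions.

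**Figure D3:**
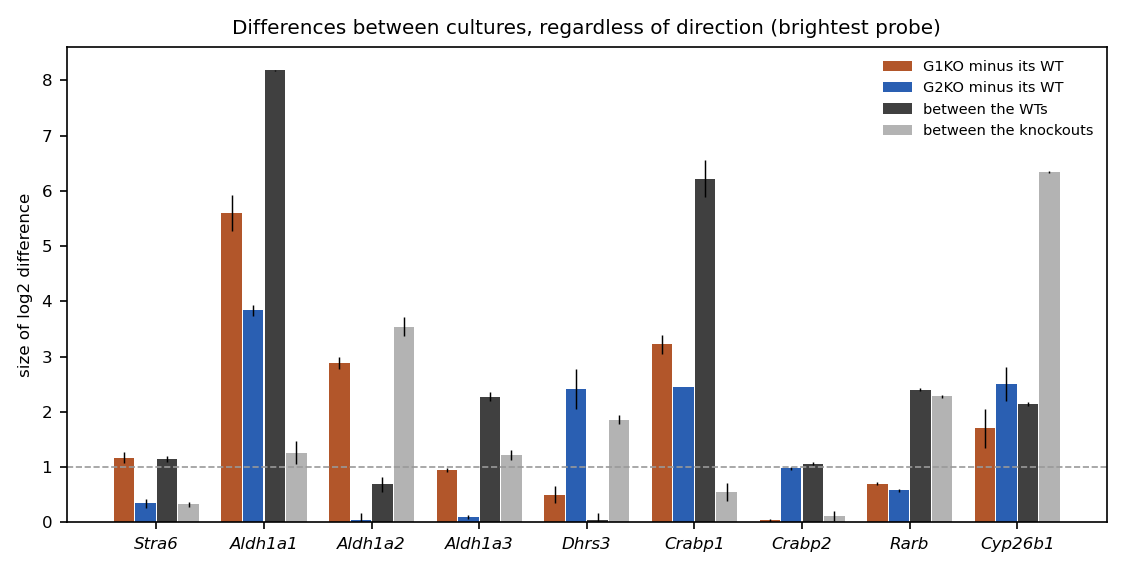
Size of the log2 difference (y axis, direction left out) of the brightest probe of each gene (x axis) between knockout and WT in each pair, between the WT cultures and between the knockout cultures. Error bars are the SD between arrays or dyes, the dashed line is 2-fold, and Aldh1a2 in the G2KO pair and Crabp2 in the G1KO pair and between the knockouts were below background on both sides. The bar between WT cultures is the tallest for Aldh1a1 (8.18) and Crabp1 (6.22), and that between knockouts for Cyp26b1 (6.35).

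The rest of the pathway was read from lists of 46 other genes for retinoid transport and storage, oxidation and reduction, and receptors with their cofactors. In the G1KO comparison 30 were tested and 0 were called, beside 5.79% of all probes, with a median log2 ratio of -0.02. The values nearest the limit were 1.05 ± 0.20 for the alcohol dehydrogenase Adh7, which was at least 2.07-fold higher in G1KO because its WT was below background, but fell under 2-fold on 1 array, and 0.92 ± 0.17 for the plasma retinol carrier Rbp4. Rdh10, the enzyme that makes retinaldehyde from retinol in embryos, had -0.82 ± 0.02. For the RNA labelled G2KO 31 were tested, with a median of 0.07, and 3 (9.68%) were called beside 6.37% of all probes, all 3 lower. These were Adh7 (-2.71 ± 0.20) and the fatty acid binding proteins Fabp4 (-3.53 ± 0.01) and Fabp5 (-1.12 ± 0.08), of which FABP5 can carry retinoic acid to PPARD. The other Fabp4 probes gave -2.84 and -0.44. The receptors Rara, Rarg, Rxra and Rxrb were tested in both comparisons, and no probe of theirs was called.

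Of 18 known target genes of retinoic acid, 12 were tested in the G1KO comparison and 1 was called, the homeobox gene Hoxd4, which was lower (-2.06 ± 0.08). Of the same list 9 were tested in the RNA labelled G2KO and 1 of them was called, the orphan nuclear receptor Nr2f1, which was higher (1.54 ± 0.24). The median was -0.01 in G1KO and 0.22 in G2KO, and the shares called over all probes were 5.79% and 6.37%. Cyp26a1, the paralogue of Cyp26b1 and a sensitive target, was at least 1.66-fold lower in G1KO (-0.73 ± 0.02, G1KO below background) and had 0.20 ± 0.04 in G2KO, at levels from 6.2 to 6.9 that were dim in all cultures.

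Among 16 other aldehyde dehydrogenases, 2 of 14 tested were called in G1KO, beside 5.79% of all probes. Both were lower, Aldh3b1 (-1.95 ± 0.13) and the mitochondrial enzyme Aldh6a1 (-2.57 ± 0.07). The RNA labelled G2KO had 2 of 15 called, beside 6.37% of all probes. Again both were lower, Aldh3b1 (-1.84 ± 0.17) and the folate enzyme Aldh1l2 (-1.54 ± 0.19, and -0.93 by another probe). None of these had opposite calls in the 2 comparisons.

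Over all probes tested in both comparisons, 221 of 24150 were called in opposite directions, and for 87 of them the G1KO ratio was the negative one. The genes with 4 array ratios nearest to those of Aldh1a1, by Euclidean distance over 24141 probes of genes outside the 9, were Ccng1 at 2.13, Mir99ahg at 2.98, Ahr at 3.15, Spon2 at 3.64 and Itgb4 at 3.88 log2 units. Ccng1, the gene deleted in G1KO, had ratios of -4.96 ± 0.08 and 2.49 ± 0.04 by that probe, and Ahr, the aryl hydrocarbon receptor, had -4.32 ± 0.01 and 2.04 ± 0.03. This likeness is over 4 arrays of 2 comparisons and is a description.

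Markers of other cell types moved with Aldh1a1 in the G1KO comparison. Of 15 mesothelial and epicardial markers, 14 were tested and 12 were called, beside 5.79% of all probes. In G1KO 11 of them were lower and 1, Krt19 (2.90 ± 0.11), was higher. The largest ratios were those of Gpm6a (-6.19 ± 0.17), Lrrn4 (-5.92 ± 0.02), Upk1b (-5.51 ± 0.14), Muc16 (-4.46 ± 0.10) and Upk3b (-4.25 ± 0.28), and Wt1 had -3.04 ± 0.13. Another Muc16 probe gave -0.34, at least 1.22-fold lower because G1KO was below background. The median was -2.96, and the summed level of the 15 genes in the single channels was 15.96 to 16.09 in G1KO and 18.20 to 18.41 in its WT. In that WT 14 of the 15 genes were above background. In the G2KO pair the picture was another. There, 11 of the 15 were below background in the RNA labelled G2KO and 9 in its WT, among them Wt1, Upk3b, Upk1b, Lrrn4, Gpm6a and Muc16 in both, and the summed level was 12.93 to 13.02 and 12.29 to 12.32. Of the 6 tested, Krt7 (2.06 ± 0.00) and Msln (1.60 ± 0.20) were called higher and Krt19, Bnc1 and Tbx18 lower, where 6.37% of all probes were called. Bnc1 was at least 2.48-fold lower because the RNA labelled G2KO was below background. Another Tbx18 probe gave -0.92 and was not called. The part of the mesothelial and epicardial markers in the Aldh1a1, Cyp26b1 and Stra6 ratios of either pair was not tested.

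The fibroblast label was checked against 12 markers, and all were above background in each of the 4 cultures. In G1KO 3 were called, beside 5.79% of all probes. Lum and Pdgfrb were higher and Dcn was lower (-4.05 ± 0.12), and the median of the list was -0.21. Another Dcn probe gave -0.89, at least 1.86-fold lower because G1KO was below background. There were 7 called in the RNA labelled G2KO, all lower, beside 6.37% of all probes, with a median of -1.36. Among them were Pdgfra (-4.63 ± 0.09, but -0.59 by another probe) and Thy1 (-3.22 ± 0.18). The summed level of the list was 18.30 to 18.85 in that RNA against 19.70 to 19.75 in its WT. Of 15 neural and glial markers, 9 were tested in the RNA labelled G2KO, with a median of -0.08 and 7 of them below 0. There, 3 were called, beside 6.37% of all probes. Nes (3.37 ± 0.23) and Sox2 (5.59 ± 0.35) were higher and Pax3 (-2.85 ± 0.07) was lower in that RNA. Another Pax3 probe gave -0.56, at least 1.47-fold lower because that RNA was below background. In G1KO 10 were tested, with a median of 0.14, and 3 were called, beside 5.79% of all probes. S100b (2.60 ± 0.19) and Nes (2.34 ± 0.17) were higher and Erbb3 (-1.28 ± 0.17) was lower. The Erbb3 call rests on a single probe, and the other Erbb3 probes were below background in both cultures of that pair. The summed level of the neural and glial list was 12.62 to 12.66 in G1KO and 11.68 to 11.73 in its WT. It was 14.50 to 14.51 in the RNA labelled G2KO and 12.16 to 12.31 in its WT. In that pair the level of Nes alone was 14.01 against 10.63 in the WT, and that of Sox2 was 12.34 against 6.75. The part of the neural and glial markers in the ratios of Crabp1, Dhrs3 and Cyp26b1 was not tested. Of 7 epithelial markers 4 were tested in G1KO and Krt14 (-2.09 ± 0.08) was called lower, with a summed level of 11.82 to 11.93 against 13.81 to 13.83 in its WT. Of 6 endothelial markers 2 were tested there and Emcn (-2.65 ± 0.08) was called lower, with 9.27 to 9.31 against 10.13 to 10.19. Of 6 smooth muscle markers 5 were tested, and Cnn1 (1.57 ± 0.01) and Myh11 (1.03 ± 0.00) were called higher in G1KO, with 18.18 to 18.23 against 18.19 to 18.27. No gene of these 3 lists was called in the RNA labelled G2KO, and none of 6 leukocyte markers was called in either comparison. The defining markers Epcam, Pecam1, Cdh5 and Ptprc were below background in all cultures. The part of these lists in the ratios of the 9 genes was not tested.

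**Figure D4:**
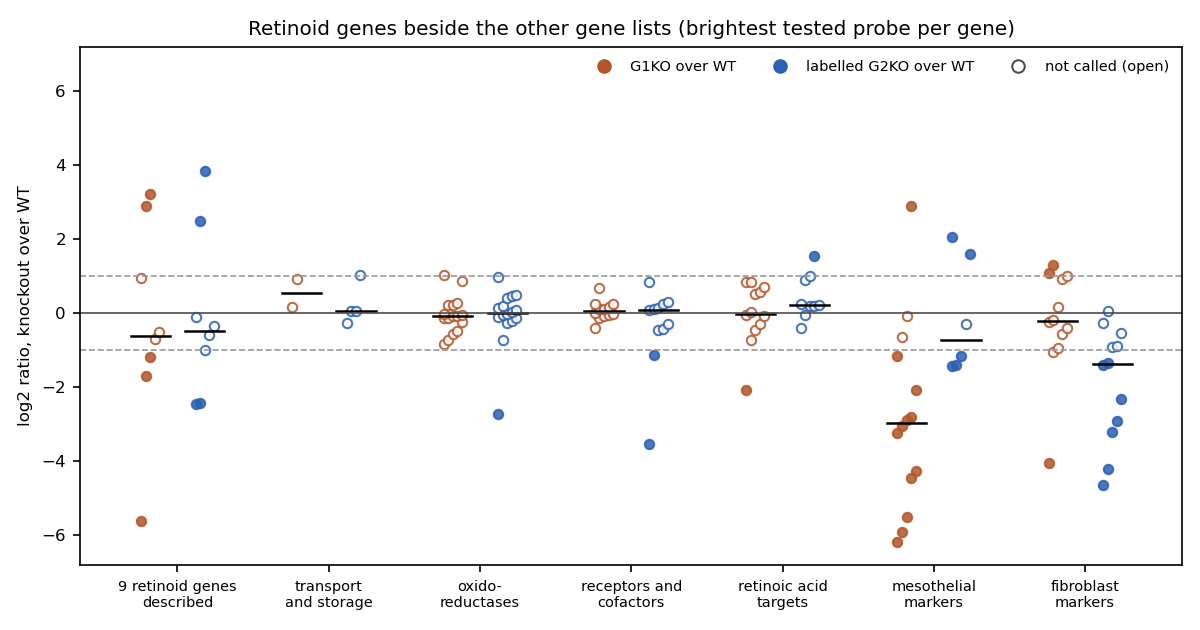
Log2 ratio of knockout over WT (y axis) of each tested gene, by its brightest tested probe, in the 9 retinoid genes, 4 further retinoid lists and 2 cell type lists (x axis). Filled circles are called genes, open circles are not called, black bars are list medians and dashed lines are the 2-fold limits. The mesothelial median lies at -2.96 in G1KO, and the fibroblast median at -1.36 in the RNA labelled G2KO.

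The labels were checked on the targeted genes. Ccng1 was -4.96 ± 0.08 and -6.67 ± 0.13 by its 2 probes in G1KO. Ccng2 was 0.09 ± 0.27 in the RNA labelled G2KO, so its probe, whose place relative to the deleted part is not given in the sources used here, did not show the knockout, and the culture is called by its label throughout. Sex differed between genotypes in both pairs. By its brightest probe Xist, transcribed in females, was 7.54 ± 0.43 and 7.24 ± 0.46 higher in the knockout RNA, and the Y-linked Ddx3y was lower (-4.97 ± 0.24 and -4.26 ± 0.23). Genotype and embryo sex therefore cannot be told apart for any of the 9 genes. Of 43379 gene spots, 25366 to 27757 were well above background per channel.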

How the data were processed

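Per the labels, labelled cRNA was made from total RNA with an oligo-dT primer. Whole-genome mouse arrays of Agilent were used. The authors' processing notes name Agilent Feature Extraction 9.1 for spot quantification, whereas the file headers give 10.5.1.1. As deposited, the scanner output gives linear intensity, as mean spot and median background brightness without normalisation. They also hold a log10 ratio of Cy5 over Cy3 after the software's own correction. The authors' deposited series table holds the same log10 ratio, turned to knockout over WT (r = 0.999999 and -0.999999 with the scanner's ratio), with a median of 0 per array.

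From these intensities, log2 ratios were made in R 4.3.3 with limma 3.58.1 by normexp background correction with an offset of 50 and loess within each array. Control spots and 114 to 203 outlier spots per array were left out, and no spot was saturated. Levels per channel were then scaled by Aquantile. A probe was tested where it was well above background on both arrays in at least 1 genotype, by at least 50% of its spots. A call needed a 2-fold ratio, on the same side of 0 on the log2 scale, on each array of the pair. With 1 replicate per genotype no p-value was computed. For a bound, the dim genotype was given its own signal or the lowest signal that was well above background in its channel, whichever was larger.

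The 9 genes, the gene lists and the rule for named genes were chosen with earlier results of these data known. All probes of the 9 genes are named, along with called genes of the lists, Aldh1a7, the 5 genes nearest to Aldh1a1, cell type markers that moved with a result, and Ccng1, Ccng2, Xist and Ddx3y. Values near the 2-fold limit and the genes Rbp4, Rdh10, Cyp26a1 and the receptors were named after their values were seen. A few genes of the lists are not reported here and were left out of the counts over the lists. A gene with several tested probes is described by its brightest. Probes were named through RefSeq tables of GRCm38.p6, 24375 of them through an accession, 6301 through a current symbol and 2426 through an outdated one, and 8072 kept the name in the file. Probe positions come from the array design and refer to build mm8. The exon or intron of each probe was not examined. The arrays shared 1 slide and 1 scan. The processing and the rule for calls were tested on simulated data, with changes planted only in brighter probes and only past the 2-fold limit. Dim probes and changes next to that limit were not covered by the simulation. Alternatives were other background corrections, centrings, filters and fold limits, the scanner's ratio, the series table and each array alone, and for levels a quantile scaling, the scanner's processed signals and each dye alone.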

Additional observations from a re-analysis of the deposited data

Results flagged for a closer look

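In 4 genes both arrays of one comparison lay on one side of 0 and both arrays of the other comparison on the other side. For Aldh1a1 the ratios on the log2 scale were -5.60 (G1KO) and 3.84 (RNA labelled G2KO). Crabp1 had 3.22 and -2.45. Cyp26b1 had -1.70 and 2.50. The brighter Aldh1a3 probe had 0.95 and -0.10, neither of which was called. The difference between the comparisons was not tested, since each genotype was 1 culture, and the genes were chosen around the first of these pairs.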

How the results depend on the processing

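The ratios of Aldh1a1 stayed between -5.83 and -5.37 in G1KO and between 3.77 and 4.42 in the RNA labelled G2KO under every alternative run, and no called ratio changed sign. The called Aldh1a2 ratio in G1KO ranged from 2.81 to 4.05. Values near 0 that were not called did change sign, among them Aldh1a2 in the RNA labelled G2KO (-0.24 to 0.14), both ratios of the dimmer Rarb probe and the difference of Dhrs3 between the WT cultures. Of the probes of the 9 genes, 5 were called in each comparison. In G1KO this became 3 with median centring in place of loess, where Cyp26b1 (-1.66) and Stra6 (-1.13) lost their calls, and 3 at a 4-fold limit. The G1KO count rose to 6 without background correction and at an offset of 10. It rose to 7 with the scanner's ratio, with the series table and at a 1.5-fold limit. The share of all probes called in G1KO was 5.79% in the setting used, 3.18% with median centring and 1.51% at 4-fold. The Crabp2 ratio in the RNA labelled G2KO passed the limit without background correction (-1.30), at an offset of 10 (-1.86), with median centring (-1.03), with the scanner's ratio (-4.26) and on the array with knockout RNA in Cy5 alone (-1.0). The brighter Aldh1a3 probe passed it in G1KO without background correction (1.24), at an offset of 10 (1.58) and with the scanner's ratio (2.98). That ratio also gave 1.51 for the dimmer Aldh1a3 probe in G1KO and -1.73 for Rarb in the RNA labelled G2KO, both past the limit. Among the level differences, the scanner's processed signals took 3 past it, Aldh1a2 between the WT cultures (2.97) and the dimmer Aldh1a3 probe between the WT cultures (-2.56) and between the knockout cultures (-1.88).

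Counts over the lists moved more, and the share called over all probes also changed with the setting. In G1KO this share, 5.79% in the setting used, was 6.56% without background correction, 7.81% at an offset of 10 and 3.18% with median centring. It was 11.2% with the scanner's ratio and with the series table, 13.1% at 1.5-fold and 6.62% on the array with knockout RNA in Cy3 alone. Other pathway genes called in G1KO, 0 in the setting used, became 1 without background correction, 4 at an offset of 10, 1 with median centring, 5 with the scanner's ratio, 5 with the series table, 6 at a 1.5-fold limit and 2 on the array with knockout RNA in Cy3 alone. In the RNA labelled G2KO 3 became 5 at an offset of 10, 6 with the scanner's ratio, 6 with the series table and 7 at 1.5-fold. Retinoic acid targets in G1KO, 1 in the setting used, became 2 at an offset of 10, 4 with the scanner's ratio, 4 with the series table and 5 at 1.5-fold. For the targets in the RNA labelled G2KO 1 became 0 with median centring, 3 with the scanner's ratio, 3 with the series table, 3 at 1.5-fold, 0 at 4-fold and 2 on the array with knockout RNA in Cy5 alone. In the RNA labelled G2KO the share over all probes, 6.37% in the setting used, was 8.75% at an offset of 10 and 3.76% with median centring. It was 13.4% with the scanner's ratio, 13.3% with the series table, 14.6% at 1.5-fold, 1.84% at 4-fold and 7.23% on the array with knockout RNA in Cy5 alone. The causes of these changes were not tested. No paired analysis was possible because each genotype had 1 culture. The number of arrays limits the precision, and signal near background limits the ratios of Crabp2, Aldh1a3 and Rarb. It also limits the size of the Aldh1a2 ratio in G1KO, where the WT level was 6.85.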
